A study of Rattus norvegicus with 12 samples.

Results

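Transcripts of the mitochondrial respiratory chain were followed in cultured rat hippocampal neurons that were kept silent or made active, with and without a block of transcription. The members were all spots of the array chosen by their single gene symbol in the platform annotation. The symbols were those used for NADH dehydrogenase (NDUFA, NDUFB, NDUFC, NDUFS and NDUFV followed by a digit) and succinate dehydrogenase (SDHA to SDHD). Also taken were those for the cytochrome bc complex (UQCR and CYC1), cytochrome c oxidase (COX with a number from 4 to 8), ATP synthase (ATP5) and cytochrome c (CYCS). The choice goes by symbol, so it can take in proteins that are not subunits, such as the inhibitor protein ATP5IF1. This gave 66 of the 6284 named genes, on 112 of 9600 spots. Complex I had 38 spots for 31 genes, complex II 7 spots for 2 genes, complex III 14 spots for 8 genes, complex IV 14 spots for 10 genes, complex V 25 spots for 14 genes, and cytochrome c 14 spots for 1 gene.

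The cultures were prepared from Sprague Dawley rats at embryonic day 18.5 and grown for 12 days, per the methods on a feeder layer of glial cells, so that glial RNA may be present. All of them were first silenced for 3 h by blockers of glutamate receptors (CNQX at 40 µM, D-APV at 50 µM) and of sodium channels (TTX at 100 nM). Block cultures stayed silent, and BiC/4AP cultures received bicuculline (50 µM), which blocks inhibitory receptors, with 4-aminopyridine (500 µM), which blocks potassium channels. Arrays were made for both states at 5, 30 and 60 min. At each time a parallel set received the transcription inhibitor actinomycin D (ActD) at 25 µM. This gave 12 conditions with 1 nylon membrane array each and no replicate of any condition. The labels give the times as the length of treatment, whereas the methods describe a short stimulus followed by later harvests. Per the methods the RNA of a condition was pooled over separate experiments, and per the labels over 3 coverslips, so each array stands for 1 pool and no condition has a second pool. Every p-value below therefore measures the spread between single arrays, which may be technical. The precision is limited by how few arrays there are.

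The respiratory chain passes electrons from NADH (complex I) and succinate (complex II) through complex III and cytochrome c to oxygen at complex IV, and complex V uses the resulting proton gradient to make ATP. Nearly all of its subunits are encoded in the nucleus, and these alone are on the list. Neurons depend on this pathway for most of the ATP that restores ion gradients after firing, and transcription factors such as NRF1 and the ETS factor GABP are known to act on many of its genes.

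The promoters of the genes were looked up for short sequences that the choice of members did not use. Of the 66 genes, 58 were matched by symbol to a rat promoter in RefSeq (build GRCr8), spanning 250 bases before to 50 bases after the start of the gene. The core of the sequence bound by NRF1, written GCGCATGCG, was found on either strand in 5 of 58 promoters (8.62%) and in 1.52% of all 33469 promoters of the table. The ETS sequence CCGGAAGT was found in 8 (13.8%), against 3.81% of all. The sequence AAGATGGCG, known as a site of the factor YY1, was found in 9 (15.5%), against 1.73% of all. Its match began 111 bases before the start of the gene in Atp5pf. In the other genes with it, the match began from 1 base before the start to 36 bases after it. At least 1 of these sequences was found in 21 of the 58 promoters, so most had none of them. The members were reduced to 1 promoter per gene, and the 33469 promoters were not. In Atp5me and Atp5po the NRF1 letters match on both strands at positions that overlap, and only the match on the strand of the gene is shown. A match is a description of the letters and not of binding. The sites shown here come from genes whose clones are described below or whose complex is, and the capitals mark the match, read along the strand of the gene, so that ACTTCCGG is the ETS sequence and CGCATGCGC the NRF1 sequence on the opposite strand.
Cycs, chr4:80984907-80984936, minus strand, NRF1: ccatgctagccCGCATGCGCgcgcaccttg
Atp5me, chr14:1464773-1464802, plus strand, NRF1: tttgcgctacgGCGCATGCGctttcctggc
Atp5po, chr11:44657524-44657553, minus strand, NRF1: cacgccgacgcGCGCATGCGctctggcatc
Ndufs1, chr9:72073787-72073816, minus strand, ETS: aggcctcggctACTTCCGGcggaactgcag
Atp5f1a, chr18:73567465-73567494, plus strand, ETS: agaagggcggtACTTCCGGgtcaggtgggc
Cox5b, chr9:46417812-46417841, plus strand, ETS: tctgtctgttcCCGGAAGTgcatctgcttg
Uqcrq, chr10:38089982-38090011, minus strand, ETS: ttccgctcctcCCGGAAGTgacgtgcaaag
The match began 158 bases before the start of the gene in Cycs, 76 in Atp5me, 59 in Atp5po, 200 in Ndufs1, 61 in Atp5f1a, 14 in Cox5b and 22 in Uqcrq.

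Rat RNA was hybridised to clones of human genes, so the signal of a spot may also come from related transcripts, and the level of 1 clone is not compared with that of another. The last position of each block of 25 spots, 384 in all, is not in the annotation and was dark, with a median mean log2 intensity of 2.07 and a highest of 3.45. Of the 112 member spots, 110 lay above the brightest of these positions in their mean over 12 arrays. So did 8919 of all 9600 spots, among which the dark positions are counted. The exceptions among the members were spot 8044 of UQCRC1, a core subunit of complex III (2.49), and spot 281 of ATP5F1D, the delta subunit of ATP synthase (3.20). The members had a median of 6.48 and all spots a median of 6.21. This level says nothing of whether names and spots were joined in the right order, since the mean of the members lay 0.09 above that of all listed spots in the order used and from -0.41 to 0.49 in orders shifted by up to 6 spots. The markers of neurons on the array (9 spots of 6 genes) all lay above the dark positions, as did those of astrocytes (7 spots of 4 genes) and microglia (5 spots of 5 genes), 5 of 6 spots of oligodendrocyte genes and all 6 of vascular or fibroblast genes, so that the array does not set the cell types apart.

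Some member clones were very bright on every array. Spot 5594 of NDUFB6, an accessory subunit of complex I, ranked between 1 and 4 of 9600 on each array. Its raw intensity at 5 min was 24647 in Block, 23328 in Block with ActD, 26268 in BiC/4AP and 23452 in BiC/4AP with ActD. At 30 min these were 28387, 29233, 31237 and 29022, and at 60 min 26744, 28836, 28052 and 26650. All 12 arrays thus lay within a narrow span, and whether it is limited by saturation of the scan was not tested. Spot 6894 of NDUFA3, another accessory subunit, ranked between 16 and 58.

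Clones of the same gene often gave different levels. Of 25 genes with 2 or more spots, the median range between the spots of a gene was 1.47 log2, and 9 genes had a range over 2. The 5 spots of SDHD, a membrane anchor of complex II, ran from 4.50 to 11.05 in mean log2 intensity. The 14 spots of CYCS ran from 4.10 to 7.92. Both genes have processed pseudogenes in mammalian genomes, so their clones may also detect near-identical copies. The catalytic subunit SDHA had spots at 5.89 and 10.39, and CYC1, the cytochrome of complex III, ran from 5.03 to 8.68. The 2 spots of ATP5F1D carry the same clone accession and lay at 3.20 and 7.52. By contrast, the 3 spots of ATP5F1A, the alpha subunit of ATP synthase, lay within 0.52 of each other, and the 2 spots of NDUFB10 were both bright, at 11.01 and 11.64. A value below therefore belongs to 1 clone and is given with its spot number.

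**Figure D1:**
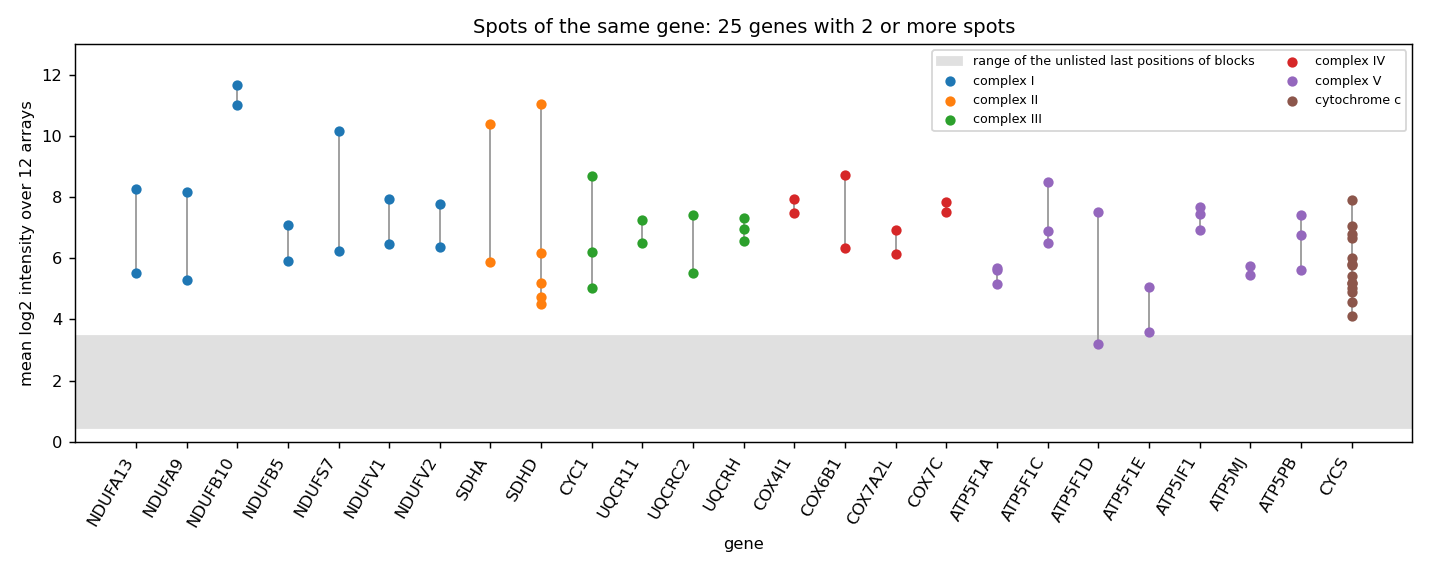
Mean log2 intensity over 12 arrays (vertical axis) of each spot of the 25 genes with 2 or more spots, coloured by complex, with a grey line joining spots of 1 gene and a grey band for the range of the 384 dark last positions. The spots of SDHD run from 4.50 to 11.05, and 1 spot of ATP5F1D lies inside the grey band.

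The first comparison asked whether respiratory chain transcripts differ between active and silent cultures. They did not differ detectably. On the scale used for all tests, in which each array's log2 intensities are set to a common mean and spread, limma's test over 6 matched pairs of arrays called 0 of 112 member spots at an adjusted p under 0.05, as it called 0% of all 9600 spots. At an unadjusted p under 0.05 it found 2 member spots (1.79%) and 498 of all spots (5.19%). The median change of the members was -0.04 log2 and that of all spots -0.00, with 74 member spots lower in BiC/4AP and 38 higher. The 95% interval of a single member reached 0.29 to either side in the median, so changes much smaller than this could not be seen for 1 clone.

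The 2 spots with the smallest p belonged to CYCS, which carries electrons between complexes III and IV, and to ATP5F1A. For CYCS spot 8469, the scaled log2 level ran from -1.87 to -0.65 in the 6 Block arrays (median -0.93) and from -2.09 to -0.95 in the 6 BiC/4AP arrays (median -1.22). The ranges overlapped, but BiC/4AP was lower in each of the 6 pairs, by -0.22 ± 0.08 (SE) on average (unadjusted p = 0.0228 and adjusted p = 0.904 by limma). The other 13 CYCS spots did not share a direction, since over all 14 spots 6 were higher and 8 lower. ATP5F1A spot 8252 ran from -1.62 to 0.11 in Block (median -0.60) and from -1.41 to -0.32 in BiC/4AP (median -0.997), a difference of -0.29 ± 0.12 (adjusted p = 0.904 by limma) that was negative in 5 of 6 pairs. The other ATP5F1A spots were close to 0, at -0.01 each.

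By complex, the medians were small. Complex I, which takes electrons from NADH, had 25 of 38 spots lower and a median of -0.04, and complex III 7 of 14 lower and a median of 0.03. Complex II stood at -0.06 (5 of 7 lower), complex V at -0.02 (17 of 25 lower) and cytochrome c at -0.01 (8 of 14 lower). Complex IV, the terminal oxidase, had 12 of its 14 spots lower and a median of -0.10, where 50.7% of all spots were lower. Both spots of COX4I1, COX6B1 and COX7C were among the 12, with values of -0.19 and -0.09, -0.28 and -0.14, and -0.15 and -0.11. No spot of complex IV had an unadjusted p under 0.05, and only the 2 spots of COX7A2L, at 0.02 each, were above 0. Some of the higher members were NDUFB3, an accessory subunit of complex I (spot 80, 0.21 ± 0.10, higher in 5 of 6 pairs), and SDHD (spot 6424, 0.17 ± 0.10, higher in 5 of 6 pairs), neither of which passed the test.

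Promoter matches can be set beside these changes. The 13 spots of the 8 genes with the ETS sequence had a median activity change of -0.10, with 12 lower, and the 87 spots of the 50 genes without it a median of -0.03, with 55 lower. The 11 spots of the 9 genes with the YY1 sequence had a median of -0.09, with 8 lower, and the 18 spots of the 5 genes with the NRF1 sequence, 14 of them CYCS, a median of -0.01, with 10 lower. These are counts without a test, and spots of 1 gene are not independent.

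**Figure D2:**
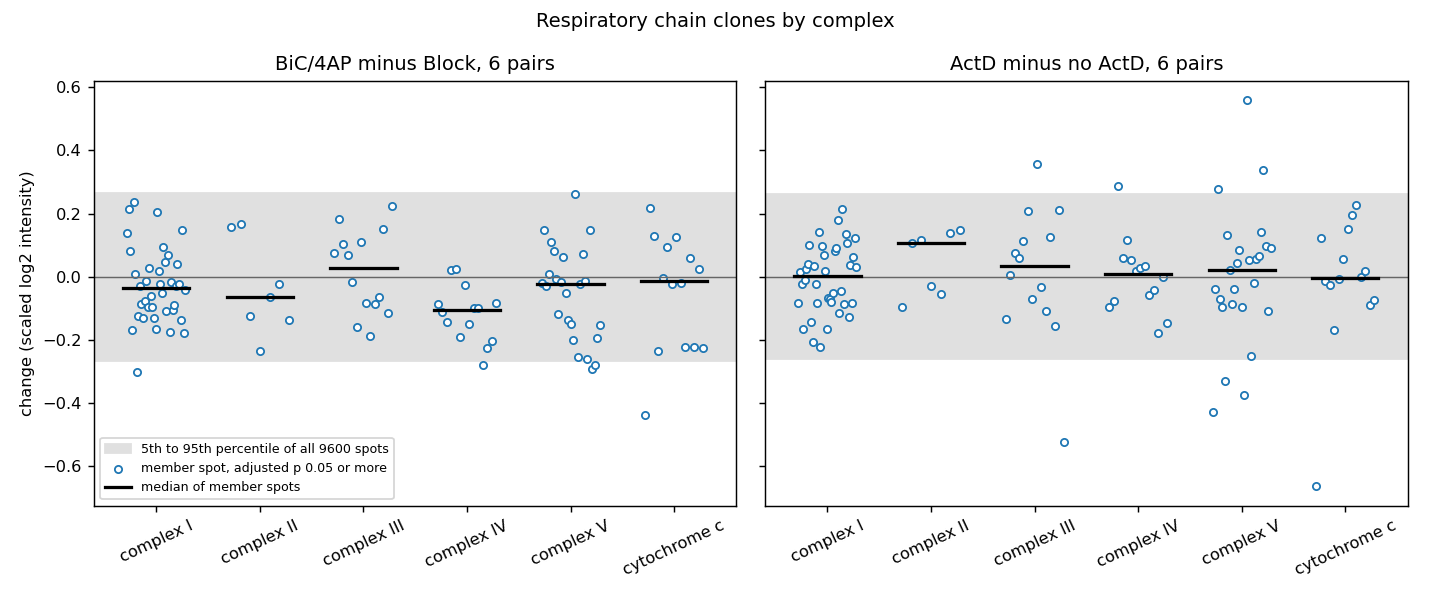
Change of each member spot in scaled log2 intensity (vertical axis) for BiC/4AP minus Block (left) and ActD minus no ActD (right), each over 6 pairs of arrays, by complex. Black lines are medians and the grey band holds the middle of all 9600 spots from the 5th to the 95th percentile. No member spot passed an adjusted p of 0.05, and complex IV has 12 of 14 spots below 0 on the left.

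Within a single time the picture was the same. At 5 min limma called 0 member spots (4 at an unadjusted p under 0.05) and 0% of all spots, at 30 min 0 member spots (10 unadjusted) and 0.0104%, and at 60 min 0 member spots (3 unadjusted) and 0%. The percentages of all spots in this paragraph are at the adjusted threshold, so the unadjusted counts cannot be set against them. The median change of the members in the pairs lacking ActD was -0.03 (5 min), -0.06 (30 min) and 0.06 (60 min), and in the pairs with ActD 0.01, -0.07 and -0.11. The smallest p at 30 min was that of NDUFV2, a flavoprotein subunit of complex I that holds an iron-sulphur cluster (spot 1160, 0.74 ± 0.17, unadjusted p = 0.00535 and adjusted p = 0.85 by limma). At 60 min the same spot lay on the other side (-0.49 ± 0.17, unadjusted p = 0.0295 by limma), and over all pairs it stood at 0.01. Without ActD 0 member spots were called (1 unadjusted) against 0% of all spots, and with ActD 0 (5 unadjusted) against 0.0104%. The test of the difference between these effects called 0 member spots (4 unadjusted) and 0% of all. The test of a shift in that effect between 5 and 60 min called 0 members as well (1 unadjusted), as for all spots (0%).

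The study's own rule takes a transcript as co-regulated where its z-fold, the difference in z-score between BiC/4AP and Block relative to the spread of that difference over all spots, passes 1.4 on the same side in both ActD states. At 5 min this held for 0 of 112 member spots, against 1.07% of all spots, and at 30 min for 0, against 1.05%. At 60 min it held for 1 member spot (0.893%), against 0.927% of all. That spot was CYCS spot 292, with z-folds of -2.65 and -2.92. It is dim, with a mean log2 intensity of 4.10, exceeded every dark position on only 5 of 12 arrays, and at 30 min moved in opposite directions (3.05 and -3.04). Opposite directions were also seen for COX6B1 spot 3908 at 30 min (-1.74 and 1.52) and for ATP5F1E, the epsilon subunit of ATP synthase (spot 5382), at 30 min (-1.92 and 4.81) and at 60 min (2.99 and -5.97). With 1 array per condition these counts carry no test. They also moved with the processing, up to 6 members at 5 min (5.36%, against 2.64% of all spots) with the 10th percentile of each array added before the log.

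The second comparison asked which members change when transcription is blocked. Because every array is set to the mean of its own spots, a loss of RNA shared by all transcripts would not appear. Over 6 pairs limma called 0 of 112 member spots (1 at an unadjusted p under 0.05), against 0.0104% of all spots (201 of 9600 unadjusted), and the median was 0.01 for the members and 0.00 for all spots. The spot with the smallest p was UQCRC1 spot 8044, at -4.11 to -3.44 without ActD (median -3.67) and -4.94 to -3.74 with it (median -4.07). It was lower with ActD in 6 of 6 pairs, by -0.52 ± 0.16 (adjusted p = 0.999 by limma), but it lay among the dark positions. In Block alone 0 members were called (2 unadjusted), and in BiC/4AP 0 (0 unadjusted), both against 0% of all spots at the adjusted threshold.

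At 5 min the members lay on the lower side with ActD. The median was -0.11 with 75 of 112 spots lower, while all spots had a median of -0.00. Complex V contributed 20 of 25 lower spots (median -0.16), complex IV 11 of 14 (median -0.12) and complex I 25 of 38 (median -0.10), whereas 6 of 7 complex II spots were higher (median 0.09). At 30 and 60 min the members' median was 0.05 at both times, against -0.00 and -0.01 for all spots. No member was called at any of these times (5, 4 and 4 unadjusted), against 0%, 0.0104% and 0% of all spots. The change of the ActD effect from 5 to 60 min had a median of 0.22, against -0.01 for all spots, and 0 called members (7 unadjusted), against 0% of all spots. These percentages are at the adjusted threshold, so the unadjusted counts cannot be set against them.

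Time was the comparison in which single members rose and fell. Per the labels the arrays are numbered in the order of the times, so that time and the order of the arrays cannot be told apart. The dark last positions also differed with time on this scale, by a median of 1.27 at 30 min and 1.23 at 60 min above 5 min, and their part in the results was not tested. From 5 to 30 min 25 member spots rose and 13 fell (33.9%), against 44.5% of all spots (20.1% rose and 24.4% fell). The median of the members was 0.17 and that of all spots 0.01. With arrays centred on their medians 54 rose and 8 fell (55.4%, against 50.1% of all spots), and with the median of each block of 25 spots removed 50 rose and 5 fell (49.1%, against 46.5%). These 2 scalings moved the median of all spots to 0.29 and 0.22, and the members' to 0.45 and 0.37. From 5 to 60 min 20 rose and 9 fell (25.9%), against 36.6% of all spots (16.2% rose and 20.5% fell), with medians of 0.09 and 0.06. Median centring gave 45 and 7 (46.4%, against 54.5% of all spots), and removal of block medians 37 and 4 (36.6%, against 43.1%), with the median of all spots at 0.36 and 0.24 and that of the members at 0.36 and 0.27. Both comparisons use the same 5 min arrays.

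**Figure D3:**
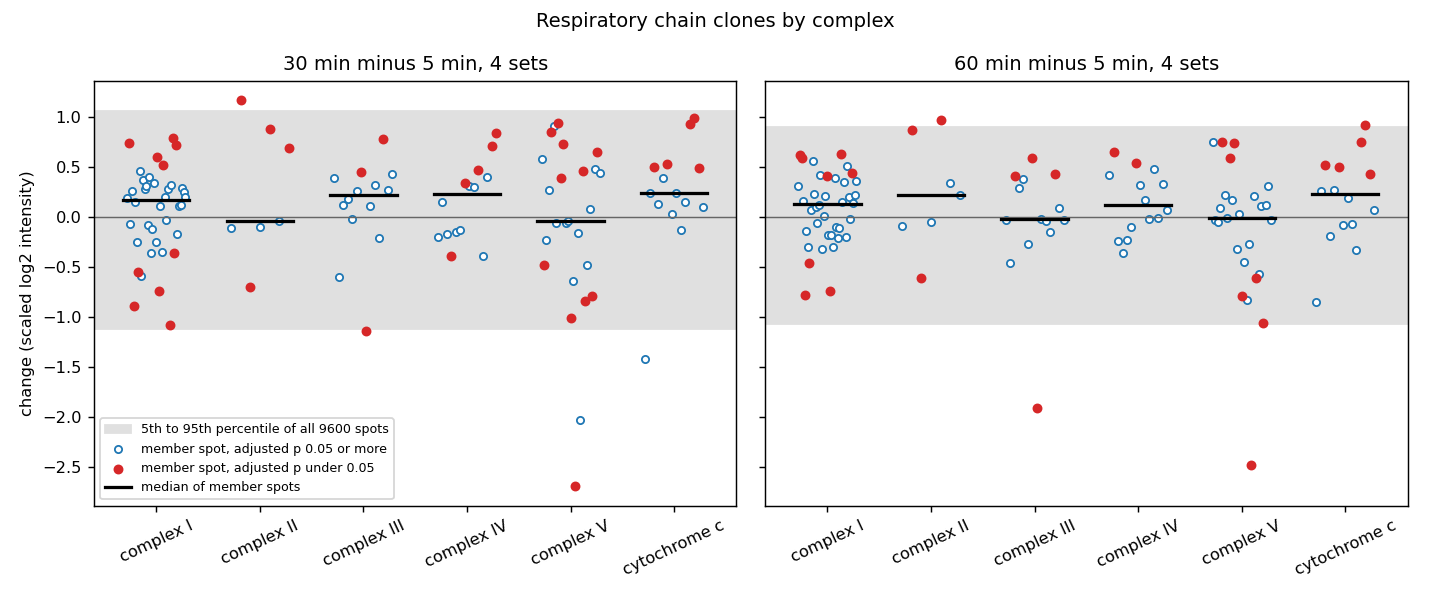
Change of each member spot in scaled log2 intensity (vertical axis) from 5 to 30 min (left) and from 5 to 60 min (right), over 4 sets of arrays, by complex. Filled red points passed an adjusted p of 0.05 by limma, 38 on the left and 29 on the right, and the grey band spans the 5th to the 95th percentile of all 9600 spots.

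Of the 38 spots called from 5 to 30 min, 10 kept their direction and their call under every other scaling, under every filter that left them in the table, and with each set of arrays left out in turn. The matching share of all spots is not given here, so this count does not set the members apart. The 7 that rose were SDHD spots 6424 and 8494, CYCS spots 8419 and 8469, ATP5F1C spot 2926, ATP5IF1 spot 3695 and ATP5PF spot 1234. The 3 that fell were ATP5F1A spot 7547, NDUFS1 spot 7622 and NDUFV3 spot 369.

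In complex II, SDHD spot 6424 rose at both later times. Its scaled log2 level was 3.72 in Block, 3.75 in Block with ActD, 3.99 in BiC/4AP and 4.14 in BiC/4AP with ActD at 5 min. At 30 min it was 4.83, 5.34, 4.90 and 5.18, and at 60 min 4.63, 4.68, 5.05 and 4.69. All 8 later arrays lay above all 4 arrays of 5 min, in either state and with or without ActD. The change was 1.16 ± 0.15 at 30 min (adjusted p = 0.000682 by limma) and 0.86 ± 0.15 at 60 min (adjusted p = 0.0031). SDHD spot 8494 rose too, by 0.88 ± 0.12 and 0.97 ± 0.12, but spots 3969 and 8269 were not called, and SDHD spot 9541 was called at 30 min only. SDHA, the partner that oxidises succinate, fell on its dimmer spot 7657 (-0.70 ± 0.14 at 30 min and -0.62 ± 0.14 at 60 min). With cyclic loess that call was lost at 30 min (adjusted p = 0.0631 by limma) and at 60 min (adjusted p = 0.131). Quantile normalisation also ended it at 60 min (adjusted p = 0.0993 by limma). The brighter SDHA spot 9386 was called at neither time (-0.05 at 30 min and 0.34 at 60 min).

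In complex V the members did not move together. ATP5IF1, the inhibitor protein that limits the reverse reaction, was at 0.37, 0.39, 0.69 and 0.47 at 5 min on spot 3695 (Block, Block with ActD, BiC/4AP, BiC/4AP with ActD). The same arrays gave 1.10, 1.41, 1.26 and 1.08 at 30 min and 1.29, 1.07, 1.21 and 1.28 at 60 min. The 5 min arrays did not overlap the later ones, and the rise was 0.73 ± 0.13 at both times (adjusted p = 0.00229 and 0.00291 by limma). Of its other spots, 8586 was called at 30 min (0.65 ± 0.20) but not at 60 min (0.30, adjusted p = 0.253 by limma), and 928 was called at neither time (0.27 and 0.085). At 30 min the gamma subunit ATP5F1C rose on spot 2926 (0.94 ± 0.17) and spot 6673 (0.46 ± 0.15), and ATP5PF, coupling factor 6 of the stalk, on spot 1234 (0.84 ± 0.21). The call on spot 6673 was lost with quantile normalisation (0.15, adjusted p = 0.463 by limma) and cyclic loess (0.11), and it held in 1 of 4 fits with a set left out. A further spot of ATP5F1C, 8306, was not called (0.48, adjusted p = 0.112 by limma). The alpha subunit ATP5F1A was at -0.31, -0.38, -0.51 and -0.22 at 5 min on spot 7547 and at -0.97, -1.24, -1.29 and -1.27 at 30 min, with no overlap, and fell by -0.84 ± 0.15 (adjusted p = 0.00256 by limma). Its spot 8252 fell as well at 30 min (-0.79 ± 0.18), but with block medians removed it stood at 0.28, and spot 1443 was not called. ATP5MF, a membrane subunit, fell by -1.01 ± 0.13 on spot 4791, but the median of its block of 25 spots moved by -0.83, and with block medians removed it stood at 0.12.

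In cytochrome c 5 of 14 spots rose and none fell from 5 to 30 min, where 20.1% of all spots rose and 24.4% fell, and 5 rose from 5 to 60 min, where 16.2% rose. Of these, the calls on spots 3648, 5449 and 8544 did not hold with each set of arrays left out, and those on 3648 and 5449 were also lost with cyclic loess (0.20 and 0.46 at 30 min). CYCS spot 8469 was at -1.87, -1.86, -1.89 and -2.09 at 5 min in the same order of conditions. It was at -0.96, -0.65, -1.19 and -0.95 at 30 min and at -0.84, -0.90, -1.05 and -1.25 at 60 min. Again the early arrays did not overlap the later ones, with changes of 0.99 ± 0.12 and 0.92 ± 0.12. CYCS spot 8419 rose by 0.93 ± 0.11 and 0.74 ± 0.11. Both clones, CYCS spot 8544 and SDHD spot 8494 share position 19 of their blocks of 25. Over all 384 spots at that position, 12.5% rose from 5 to 30 min and the median was -0.16. Over the same interval the medians of their blocks moved by 0.44 (spot 8419), 0.35 (spot 8469), 0.07 (spot 8544) and 0.16 (spot 8494). The part of position and block in these rises was not tested.

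In complexes III and IV no call from 5 to 30 min held under every scaling and with every set left out. From 5 to 60 min the calls on CYC1 spots 3954 and 5981 and on COX7A1 spot 4636 did hold. CYC1 gave opposite calls on different clones, since spot 5981 fell by -1.14 ± 0.36 at 30 min and by -1.91 ± 0.36 at 60 min while spot 3954 rose by 0.45 ± 0.12 and 0.58 ± 0.12. Spot 5981 exceeded every dark position on only 5 of 12 arrays. UQCRB, a small subunit of complex III, rose by 0.78 ± 0.14 at 30 min on spot 7216, where the median of its block moved by 0.45, and with block medians removed it stood at 0.28 (adjusted p = 0.126 by limma). In complex IV, COX7A1, the heart and muscle isoform of its subunit, rose by 0.34 ± 0.10 and 0.53 ± 0.10 on spot 4636, COX5B by 0.84 ± 0.25 at 30 min on spot 8538, and COX7C by 0.65 ± 0.12 at 60 min on spot 2031. The call on COX5B was lost with quantile normalisation (0.65, adjusted p = 0.0803 by limma) and cyclic loess (0.56, adjusted p = 0.101), and that on COX7C with cyclic loess (0.41, adjusted p = 0.0602).

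The 3 clones that rose between 30 and 60 min belonged to complex I, and of these NDUFS1 alone had a called fall before. From 30 to 60 min 3 member spots rose and 0 fell (2.68%), against 3.15% of all spots (3.03% rose and 0.115% fell). For NDUFS1, the large iron-sulphur subunit (spot 7622), the level at 5 min was 3.46 in Block, 3.60 in Block with ActD, 2.75 in BiC/4AP and 3.22 in BiC/4AP with ActD. It was 2.07, 1.91, 2.49 and 2.22 at 30 min and 4.19, 3.93, 3.81 and 3.61 at 60 min. The arrays of 30 min lay below all others, and those of 60 min above all others, though Block with ActD at 5 min (3.60) came close to BiC/4AP with ActD at 60 min (3.61). The change was -1.08 ± 0.21 from 5 to 30 min (adjusted p = 0.00393 by limma), 1.71 ± 0.21 from 30 to 60 min (adjusted p = 0.00584) and 0.63 ± 0.21 from 5 to 60 min (adjusted p = 0.0454). The last of these calls was lost with quantile normalisation (0.20, adjusted p = 0.519 by limma), with cyclic loess (0.29) and with each of the 4 sets of arrays left out.

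NDUFS7, a subunit that carries the last iron-sulphur cluster before ubiquinone, was at 2.94, 2.97, 3.45 and 3.02 at 30 min and at 4.97, 3.82, 4.05 and 4.13 at 60 min on spot 2584, a rise of 1.15 ± 0.23. Its change of -0.59 from 5 to 30 min had not passed (adjusted p = 0.0628 by limma). The other spot of NDUFS7, 3567, did not rise from 30 to 60 min (-0.18, adjusted p = 0.682 by limma). NDUFA13 rose on spot 5208 by 0.65 ± 0.12, after a change of -0.25 that was not called (adjusted p = 0.132 by limma). The other spot of NDUFA13, 5620, did not rise either (-0.28, adjusted p = 0.377 by limma). With each set of arrays left out in turn, the count from 30 to 60 min lay between 0 and 2, so that none of the 3 calls held throughout. NDUFV3, an accessory protein of the flavoprotein part, fell from 5 to 30 min on spot 369 (-0.89 ± 0.18). NDUFA5 fell on spot 5601 by -0.74 ± 0.14 at 30 min, and NDUFB3 rose on spot 80 by 0.73 ± 0.13. With cyclic loess neither was called (-0.36, adjusted p = 0.0602 by limma, and 0.38, adjusted p = 0.0526), and NDUFA5 was not called with block medians removed (adjusted p = 0.104).

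**Figure D4:**
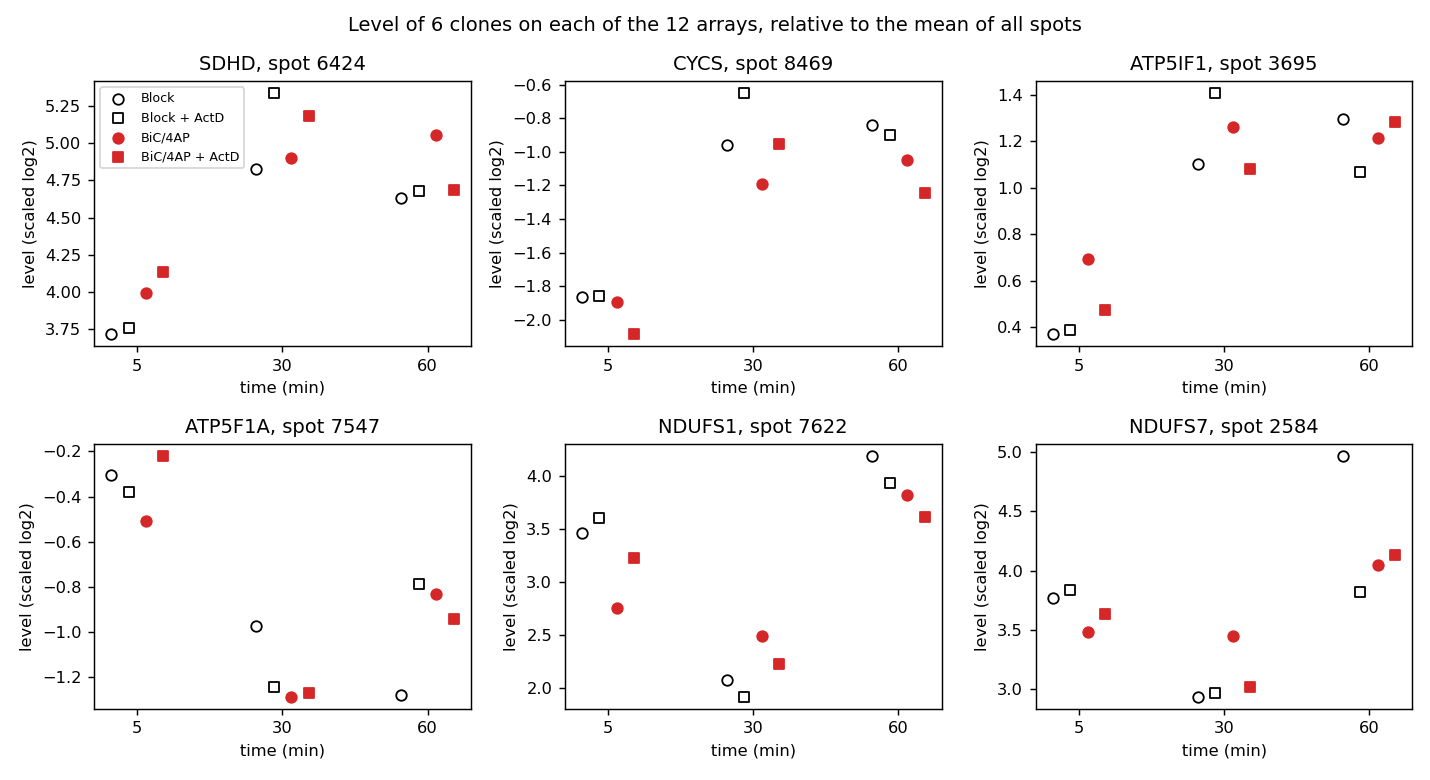
Scaled log2 level (vertical axis, relative to the mean of all spots) of 6 clones on each of the 12 arrays against time (5, 30 and 60 min), with circles without ActD, squares with ActD, open symbols for Block and red symbols for BiC/4AP. SDHD, CYCS and ATP5IF1 lie higher at 30 and 60 min than at 5 min on all arrays, and NDUFS1 is lowest at 30 min.

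The spots of 1 gene did not always agree in time. Of the 25 genes with several spots, 11 had spots in both directions from 5 to 30 min, and 11 had them for activity. Some spots of the marker genes were also called in time. From 5 to 30 min, where 20.1% of all spots rose and 24.4% fell, 4 of 7 astrocyte spots fell and 0 rose (median -0.52). Of 9 neuronal spots 1 rose and 2 fell (median -0.36), and 0 of 5 microglial spots were called. Among oligodendrocyte spots 1 of 6 rose, and 3 of 6 vascular or fibroblast spots rose and 1 fell. The part of the marker genes in the members' changes was not tested.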

How the data were processed

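Radiolabelled cDNA from rat RNA was hybridised to nylon membranes spotted with human clones. The authors deposited raw spot intensity with no normalisation, as 1 table with a column per array and as a second table that was identical in 115200 of 115200 values (the first one was read). Of 9600 spots the annotation lists 8517, of which 8496 carry 1 symbol and 21 several (treated as unnamed), and 1083 are unlisted. The aligning of clones to rat transcripts and the versions of the scanning software are not given in the sources used here. Labels and methods differ on RNA amount and pooling (3 coverslips per sample in the labels), which changes no value.

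Intensities were log2 transformed, z-scored on each array after the study's method and put back on a log2 scale by the mean SD over arrays (2.15). limma 3.58.1 in R 4.3.3 was fitted to all 9600 spots and 12 arrays with matched sets of arrays as a block, two-sided, with a Benjamini-Hochberg adjusted p under 0.05 over all spots, and was tested on simulated data. Activity and ActD were compared in 6 pairs each, time in 4 sets. The z-fold formula is not printed in the sources, and dividing by the SD over all spots was assumed. Array medians of raw intensity lay between 52.6 and 137. Alternatives were other scalings, filters on dim spots and leaving out each set. ActD effects at single times, and differences between times, were added after seeing the data.

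Named spots were, per complex, those with the smallest p in each direction for activity, ActD and time, called spots, co-regulated spots, genes with 3 or more spots and the brightest spot; only part of them is printed. The members and lists were chosen with earlier results of these data known.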

Additional observations from a re-analysis of the deposited data

How the results depend on the processing

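The counts of called members for activity (over all pairs, at each time, in each ActD state and their difference) and for ActD (over all pairs and in each state) stayed at 0 under each alternative and with each pair left out. ActD effects at single times and the differences of effects added after seeing the data were fitted at 1 setting only. Time counts moved. From 5 to 30 min the 38 calls became 62 with median centring (50.1% of all spots) and 17 to 39 with 1 set left out. The lowest, without the Block arrays with ActD, was 15.2% of members, against 25.3% of all spots. From 5 to 60 min the 29 calls became 52 with median centring (54.5% of all spots) and 17 to 20 with 1 set left out. The count was 17 (15.2%) without the Block arrays lacking ActD, against 21.1% of all spots. It was also 17 without the BiC/4AP arrays lacking ActD, against 24.7% of all spots. From 30 to 60 min the 3 calls became 8 with median centring (5.26% of all spots), 9 without the dimmest 33.3% of spots (79 members left, 8.27% of all), 8 with the 10th percentile of each array added before the log (5.57%), 5 without last positions (4.01%), 5 without spots at the most frequent value (110 members left, 4.02%), and 0 to 2 with 1 set left out. Co-regulated members at 5 min (0, against 1.07% of all spots) numbered 1 with quantile normalisation (1.15%), 1 with block medians removed (1.15%), 4 without the dimmest spots (2.44%), 6 with the added percentile (2.64%), 2 without last positions (1.2%) and 2 without spots at the most frequent value (1.01%). At 30 min (0, against 1.05%) they numbered 1 with quantile normalisation (1.22%), 1 with cyclic loess (1.05%), 2 without the dimmest spots (0.734%), 2 with the added percentile (0.729%), 3 without last positions (0.738%) and 3 without spots at the most frequent value (0.803%). At 60 min (1, against 0.927%) they numbered 0 without the dimmest spots (0.234%), 2 with the added percentile (0.51%), 0 without spots at the most frequent value (0.727%) and 0 with a plain difference of z-scores (0.0312%). The cause was not tested. Removing block medians reversed ATP5F1A spot 8252 (0.28), COX7A2L spot 4117 (0.44) and ATP5MF spot 4791 (0.12) from 5 to 30 min, and ATP5F1A spot 8252 (0.14) and ATP5MF spot 4791 (0.46) from 5 to 60 min. NDUFB6 spot 5594 turned from 5 to 30 min to -0.037 with cyclic loess and -0.036 with the added percentile. Of the called time effects, 8 of 29 from 5 to 60 min and 0 of 3 from 30 to 60 min held under every scaling and with every set left out. The matching shares of all spots are not given here. The 8 were ATP5IF1 spot 3695, CYC1 spot 3954, COX7A1 spot 4636, SDHD spots 6424 and 8494 and CYCS spots 8419 and 8469, which rose, and CYC1 spot 5981, which fell. No paired analysis was possible because, for a pairing by replicate number, every sample carries the same number and each condition has 1 array; the matched conditions, which are not replicates, were the block of every fit.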

Other observations

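Other mitochondrial genes on the array were described by lists chosen from textbook knowledge with earlier results of these data known. For activity limma called none of the spots of any of these lists, with unadjusted p under 0.05 for 1 of 20 spots of the tricarboxylic acid cycle, 1 of 39 of assembly factors, 0 of 35 of protein import, 0 of 22 of carriers and porins and 1 of 8 of biogenesis regulators. From 5 to 30 min, where 44.5% of all spots were called, the tricarboxylic acid cycle and its pyruvate entry had 1 spot that rose and 10 that fell, with a median of -0.44. The 3 spots of OGDH, an oxoglutarate dehydrogenase subunit, all fell, by values from -0.85 to -1.20, and those of PDHA1 (-0.72), PDHX (-0.63) and 1 of 2 spots of PDHB (-0.92), all of pyruvate dehydrogenase, fell too. PC, which makes oxaloacetate from pyruvate, fell by -1.02 at 30 min and stood at -0.10 at 60 min. DLST, the succinyltransferase, rose on 1 of its 3 spots (0.61).

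Among the regulators of mitochondrial biogenesis, the factors NRF1 (0.83) and YY1 (0.65), the mitochondrial transcription factor TFB2M (0.86) and 1 of 2 spots of POLG2, a subunit of the mitochondrial DNA polymerase (0.85), rose from 5 to 30 min, while GABPB1 (-0.55) and PPRC1 (-0.47) fell. Over the same interval 20.1% of all spots rose and 24.4% fell. Of 39 spots of assembly factors 4 rose and 8 fell (median -0.11). Protein import had 6 and 7 of 35 (median -0.13), and carriers and porins 1 and 5 of 22 (median 0.01). The confounding of time with the order of the arrays holds for all of these values.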
